A study of Mus musculus with 54 samples.

Results

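Protein kinase A (PKA) subunits and the proteins that hold PKA in the sperm tail were followed through mouse testes that differ in their dose of the chromatin insulator proteins CTCF and BORIS. The 10 genes were taken by symbol, with no threshold on a measured value. They encode the regulatory subunits Prkar1a, Prkar2a and Prkar2b, the catalytic subunits Prkaca and Prkacb, the A-kinase anchoring proteins Akap3 and Akap4, the ropporins Ropn1 and Ropn1l, and the fibrous sheath interacting protein Fsip2. Of the 10 genes, 9 had a row in both tables of raw read counts, each of which lists 23284 genes. Fsip2 had none under this symbol, so its expression was not analysed here and only the peaks at its locus are given.

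PKA is held inactive as a tetramer of regulatory and catalytic subunits and is released when cAMP binds the regulatory pair. In sperm, cAMP made by soluble adenylyl cyclase drives motility and capacitation through PKA. The kinase is tethered along the tail by A-kinase anchoring proteins, of which AKAP4 and AKAP3 build most of the fibrous sheath of the principal piece, while ropporins carry the docking domain through which PKA type II regulatory subunits also bind anchors. The sheath genes are transcribed in haploid spermatids, before the nucleus condenses.

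All mice were C57BL/6 males of 3 months, and each preparation pooled 4 animals. WT mice (Ctcf+/+ Boris+/+) were compared with CTCF HET mice, which carry 1 intact Ctcf allele (Ctcf+/- Boris+/+), with BORIS KO mice, which lack Boris (Ctcf+/+ Boris-/-), and with the compound mutant CM (Ctcf+/- Boris-/-). Each genotype had 3 libraries of rRNA-depleted RNA from germ cell-enriched suspensions of the whole testis, 3 of poly(A) RNA from sorted round spermatids, whose purity the submitters give as 93.7% ± 2.3, and 3 from sorted spermatocytes (81.5% ± 3.7), except for 2 libraries of WT spermatocytes. Peak lists for CTCF, RNA polymerase II (Pol2) and H3K4me3, a histone mark of active start sites, came from WT and CM germ cells, and those for BORIS from WT.

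Total counts per library ran from 10437683 to 42055813 in whole testis, from 47740650 to 98545423 in round spermatids and from 53337530 to 88946702 in spermatocytes. Ctcf was at 39.9 to 47.0 CPM (counts scaled to library size) in WT testis and at 22.3 to 30.2 CPM in CTCF HET and 24.0 to 27.4 CPM in CM testis, but the sorted cells did not show this. In spermatocytes it was at 33.3 and 35.2 CPM in WT and 32.3 to 52.4 CPM in the libraries labelled CTCF HET, and in round spermatids at 29.4 to 48.7 and 21.6 to 33.4 CPM. Of the sorted libraries labelled CM, replicate 1 stood apart at 172 CPM in round spermatids and 85.9 CPM in spermatocytes, and the lowest values were 39.5 and 33.0 CPM. Rltpr, a neighbour of Ctcf, was at 28.1 to 103.6 CPM in every CTCF HET and CM library and at 0.603 to 2.93 CPM in every WT and BORIS KO library. Ctcfl, the gene of BORIS, was at 0.531 to 0.688 CPM in WT testis and 0.122 to 0.397 CPM in BORIS KO and CM testis. In round spermatids it was at 2.84 to 5.12 CPM in WT and still at 1.97 to 2.39 CPM in the libraries labelled BORIS KO and 1.11 to 2.55 CPM in those labelled CM. In spermatocytes it was at 0.0662 and 0.0789 CPM in WT, 0 to 0.0857 CPM in BORIS KO and 0 to 0.387 CPM in CM. Counts were thus lower but not absent in the round spermatids labelled BORIS KO or CM, and too few in spermatocytes to check the label. Summed spermatocyte markers were 5422 to 6295 CPM in WT spermatocytes and 1521 to 1933 CPM in WT round spermatids, and summed elongating spermatid markers were 62.2 to 66.3 CPM and 2913 to 4241 CPM.

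Promoter sequence is shown for Akap3 and Akap4, the sheath anchors whose levels differed between cell types and genotypes below, and for Prkar1a, whose promoter holds a full cAMP response element. The letters TGACGTCA, the palindromic cAMP response element, and TGATGTCA, a variant with 1 changed base, were searched on both strands in windows of 250 bases before to 50 bases after each start of the RefSeq annotation of GRCm38.p6, where all 10 genes had a window. TGACGTCA stood in 1.79% of all 32851 windows and near starts of Prkar1a alone among the 10 genes. TGATGTCA stood in 3.62% of the windows and in those of Akap3 and Akap4. The longest run that the Akap3 and Akap4 windows share is 20 bases long and ends in TGATGTCA, and no other gene's window among the 32851 held it. The run was chosen after the sequences were seen, and a match describes letters, not binding. The stretches below were read from mm9, plus strand, which is the coding strand of all 3 genes. They cover chr6:126802996-126803135 for Akap3, chrX:6644525-6644664 for Akap4, both with the shared run in capitals, and chr11:109512203-109512232 for Prkar1a, with TGACGTCA in capitals.
Akap3: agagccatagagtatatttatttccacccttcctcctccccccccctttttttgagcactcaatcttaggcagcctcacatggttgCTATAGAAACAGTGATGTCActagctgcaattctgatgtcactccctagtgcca
Akap4: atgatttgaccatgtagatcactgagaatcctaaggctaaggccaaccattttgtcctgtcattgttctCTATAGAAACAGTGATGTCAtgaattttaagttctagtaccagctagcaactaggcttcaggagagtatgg
Prkar1a: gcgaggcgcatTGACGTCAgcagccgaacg

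By the GENCODE vM1 starts on mm9, the shared run begins 34 bases before the start of Akap3 and 51 bases before that of Akap4, and the TGACGTCA of Prkar1a begins 21 bases before one of its starts. In the RefSeq windows on GRCm38.p6 the run begins at -34 for Akap3 and at -47 for 1 of the 2 Akap4 windows, and TGACGTCA begins at -49 and at 38 in 2 of the 6 Prkar1a windows. The window of Akap3 holds TGATGTCA 2 times. Core words of the CTCF motif were searched as the heptamer AGAGGGC, the heptamer AGATGGC, the heptamer AGGGGGC and the heptamer AGGTGGC. At least 1 of these 4 stood in 27.6% of all windows and in those of Prkar1a, Prkar2b, Prkaca and Fsip2.

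In the WT testis the anchors and ropporins were the most abundant members. On the scale of CPM per kilobase of merged exons, Akap4 had the highest mean level at 1441, followed by Ropn1l at 1283, Akap3 at 661, Ropn1 at 448, Prkar2a at 139.9, Prkar1a at 59.3, Prkaca at 50.8, Prkar2b at 2.09 and Prkacb at 1.32. Only the neighbours Akap4 and Ropn1l overlapped between libraries in this order. In WT round spermatids Ropn1l led at 742 CPM per kilobase, ahead of Akap3 at 228, Akap4 at 197.8, Ropn1 at 120.4 and Prkar1a at 88.9, which overlapped, and Prkaca at 47.8, while Prkar2a stood at 6.83. In WT spermatocytes Ropn1l again led at 821 CPM per kilobase, followed by Prkar1a at 64.0 and Prkaca at 62.4, whose ranges overlapped, and Prkar2a came last at 0.222. The whole testis libraries were rRNA-depleted and the sorted-cell libraries poly(A)-selected, so levels were not tested between them.

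Among the regulatory subunits, Prkar2a, which encodes the type II alpha subunit, supplied 67.7 to 71.7% of the summed length-scaled level of Prkar1a, Prkar2a and Prkar2b in the WT testis libraries. In WT round spermatids it supplied 4.45 to 8.60%, and in the 2 WT spermatocyte libraries 0.335% and 0.330%. The rest was almost all Prkar1a, which encodes the type I alpha subunit.

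Round spermatids were compared with spermatocytes to ask which members rise after meiosis. In WT, 6 of the 9 members tested were higher in round spermatids and 0 were lower at an adjusted p under 0.05 (edgeR's quasi-likelihood test with Benjamini-Hochberg adjustment, the rule for every call below), against 35.8% of all genes higher and 34.2% lower, 70% in all. The median log2 fold change of the 9 members was 1.43, and that of all genes tested was 0.02. Akap3, Akap4, Ropn1 and Prkar2a rose by 4.97 or more on the log2 scale, while Ropn1l, a paralog of Ropn1, did not pass the test. Because these are bulk libraries, fewer cells of a type and less RNA per cell cannot be told apart here or below.

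Akap4, the main sheath anchor, was at 10.7 and 9.87 CPM in the WT spermatocyte libraries and at 556, 620 and 621 CPM in the WT round spermatid libraries. No library of one cell type came near the other, and the log2 fold change was 5.89 ± 0.13 (SE, n = 3 and 2, adjusted p = 1.18e-07). Akap3, its partner in the sheath, was at 17.4 and 16.8 CPM in spermatocytes and 785, 689 and 683 CPM in round spermatids, a log2 fold change of 5.42 ± 0.12 (adjusted p = 1.18e-07).
Ropn1 was at 1.77 and 1.61 CPM in WT spermatocytes and 97.7, 122.1 and 132.8 CPM in round spermatids. Its log2 fold change was the largest of the members at 6.14 ± 0.21 (adjusted p = 3.74e-07). Prkar2a was at 0.933 and 0.926 CPM in spermatocytes and 20.9, 30.0 and 35.0 CPM in round spermatids, and its log2 fold change was 4.97 ± 0.29 (adjusted p = 4.83e-06). For both genes every round spermatid library lay above every spermatocyte library.

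Prkacb, the beta catalytic subunit, was low in both cell types. It was at 2.19 and 1.53 CPM in WT spermatocytes and 5.39, 5.27 and 4.14 CPM in round spermatids, with a log2 fold change of 1.43 ± 0.25 (adjusted p = 0.00168). Prkar1a rose less, by 0.50 ± 0.13 on the log2 scale (adjusted p = 0.0118), and was no longer called without either WT spermatocyte library, when 5 of 9 members were called. Ropn1l was at 726 and 768 CPM in WT spermatocytes and 752, 611 and 664 CPM in round spermatids, which overlapped (log2 fold change -0.12 ± 0.10, adjusted p = 0.334). Prkaca, the alpha catalytic subunit, had a log2 fold change of -0.36 ± 0.15 (adjusted p = 0.0672) and Prkar2b one of 0.19 ± 0.17 (adjusted p = 0.329). Without the WT round spermatid replicate 1, Prkaca and Ropn1l were also called, as lower, and 8 of 9 members passed. The gene rows do not separate the somatic and sperm-specific forms of Prkaca, which differ in their first exon.

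**Figure D1:**
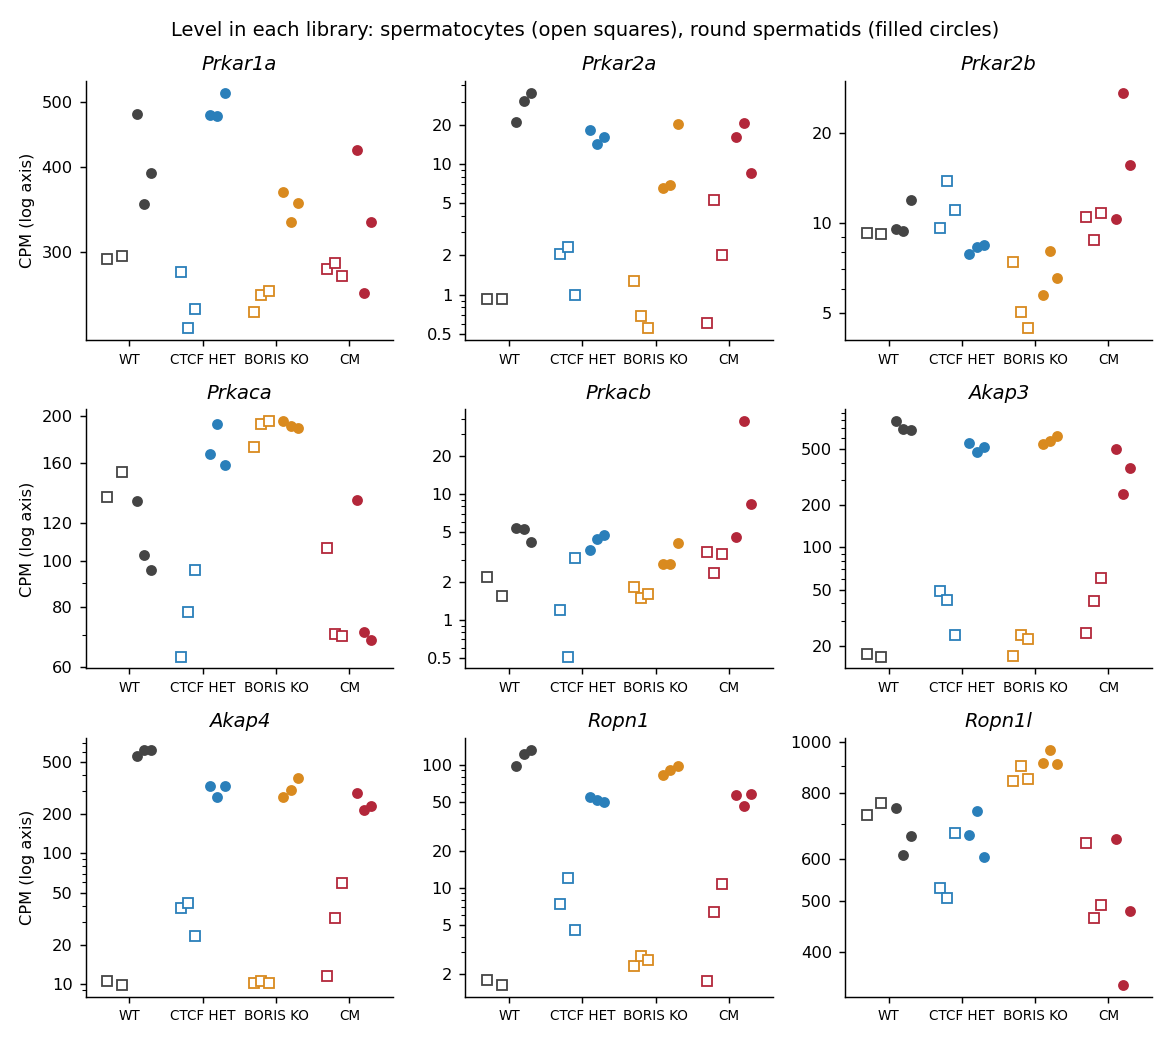
Level of the 9 members in each sorted-cell library, in CPM on log axes, for spermatocytes (open squares) and round spermatids (filled circles) of each genotype. Akap3, Akap4 and Ropn1 are higher in every round spermatid library than in every spermatocyte library. Their gap is narrower in all mutants than in WT, least so in BORIS KO, whereas Ropn1l lies in 1 band.

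The same contrast was made within each mutant genotype. It called 7 of 9 members for the BORIS KO (83.3% of all genes), 6 for CTCF HET (53.6%) and 5 for CM (27.9%), all of them higher in round spermatids. Akap3, Akap4, Ropn1 and Prkar2a were called in each genotype, but Prkar2a in CM lost its call in all but 1 of the 6 fits that leave out a library (adjusted p 0.0261 to 0.115). The log2 fold change of Akap4 was 4.97 ± 0.14 for the BORIS KO, 3.22 ± 0.24 for CTCF HET and 2.79 ± 0.55 for CM. In the same order that of Ropn1 was 5.17 ± 0.10, 2.76 ± 0.35 and 3.04 ± 0.62. Prkaca was called in CTCF HET alone, where its log2 fold change was 1.18 ± 0.17 (adjusted p = 0.00178). Prkacb was called in CM with an adjusted p of 0.0485, where 1 round spermatid library held 38.0 CPM and the others 4.59 and 8.40 CPM. In the fits that leave out a library it was called without CM round spermatid replicate 1 alone. The fits without CM round spermatid replicate 2 or 3, or without CM spermatocyte replicate 1 or 3, called Akap3, Akap4 and Ropn1 and no other member.

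In the whole testis, the compound mutant was compared with WT to ask what the joint loss of Boris and of 1 Ctcf allele does. Akap3, Akap4 and Prkar2a fell in CM, Prkacb rose, and the other members did not pass the test. That made 4 of 9 members called, against 25.2% of all genes, with 1 higher (16.4% of all genes) and 3 lower (8.8%). The median log2 fold change of the 9 members was -0.66, and that of all genes was 0.003.

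Prkar2a was at 684, 534 and 540 CPM in the WT libraries and 128.9, 282 and 211 CPM in the CM libraries. The groups did not overlap, and the mean fell from 586 ± 85.2 to 207 ± 76.4 CPM (SD, n = 3), a log2 fold change of -1.52 ± 0.32 (SE, adjusted p = 0.018). Akap3 was at 2523, 2177 and 1548 CPM in WT and 775, 961 and 802 CPM in CM, and again each CM library was below each WT library. Its log2 fold change was -1.32 ± 0.26 (adjusted p = 0.0165).
Akap4 was at 3907, 4567 and 4615 CPM in WT and 734, 2378 and 2066 CPM in CM. CM replicate 1 was lower than the other CM libraries, the groups did not overlap, and the log2 fold change was -1.36 ± 0.43 (adjusted p = 0.047). Prkacb went the other way, from 8.23, 7.44 and 5.93 CPM in WT to 27.6, 14.1 and 25.4 CPM in CM (log2 fold change 1.59 ± 0.31, adjusted p = 0.0164). All CM libraries were above all WT libraries for this gene.

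Ropn1 was at 437, 462 and 411 CPM in WT and 185, 279 and 318 CPM in CM. These groups did not overlap, but the log2 fold change of -0.77 ± 0.27 missed the threshold (adjusted p = 0.0637). It passed when the replicate number, by which residuals of the whole testis libraries correlated, was fitted as a block (adjusted p = 0.0202). With the block 5 of 9 members were called, against 43% of all genes. Ropn1l had a log2 fold change of -0.66 ± 0.26 (adjusted p = 0.09), Prkar2b of 0.51 ± 0.26 (adjusted p = 0.173), Prkaca of -0.25 ± 0.21 (adjusted p = 0.39) and Prkar1a of -0.19 ± 0.21 (adjusted p = 0.516).

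The balance of subunits moved with these changes. Prkar2a supplied 35.4, 53.0 and 48.5% of the summed regulatory level in the CM testis libraries, below the WT range given above. Prkacb supplied 1.90 to 2.90% of the summed level of Prkaca and Prkacb in WT and 5.23 to 10.7% in CM. The ratio of the summed regulatory to the summed catalytic level was 3.33 to 4.38 in WT and 1.83 to 2.58 in CM. These sums are a description of length-scaled levels of 5 genes, with no test.

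Without WT replicate 1 the call of Akap4 was lost (adjusted p = 0.08), and all 4 calls were lost when WT replicate 2, WT replicate 3 or CM replicate 3 was left out. The adjusted p of Akap3 was then 0.0714, 0.0603 and 0.0572, with log2 fold changes of -1.28, -1.49 and -1.25, and 11, 3 and 4 genes were called in all.
Markers of other cells moved with the same contrast. Summed markers of elongating spermatids were 18923 to 27403 CPM in WT and 5249 to 13876 CPM in CM testis (5 of 8 markers lower), and those of round spermatids 3144 to 3920 CPM and 985 to 1990 CPM (6 of 10 lower). Summed Leydig cell markers were 374 to 673 CPM in WT and 1942 to 3917 CPM in CM (6 of 8 higher), and macrophage markers 49.6 to 137.0 CPM and 198.9 to 690 CPM (6 of 7 higher). Sertoli markers were 264 to 375 CPM and 626 to 1142 CPM (4 of 9 higher) and those of peritubular and stromal cells 92.3 to 170.2 CPM and 312 to 619 CPM (5 of 8 higher). Spermatogonia markers were 53.7 to 74.6 CPM and 118.5 to 418 CPM (2 of 8 higher), and spermatocyte markers 925 to 1067 CPM and 789 to 955 CPM (1 of 10 lower). No marker of these lists was at 0 in all WT or all CM testis libraries, and their part in the changes of the members was not tested.

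**Figure D2:**
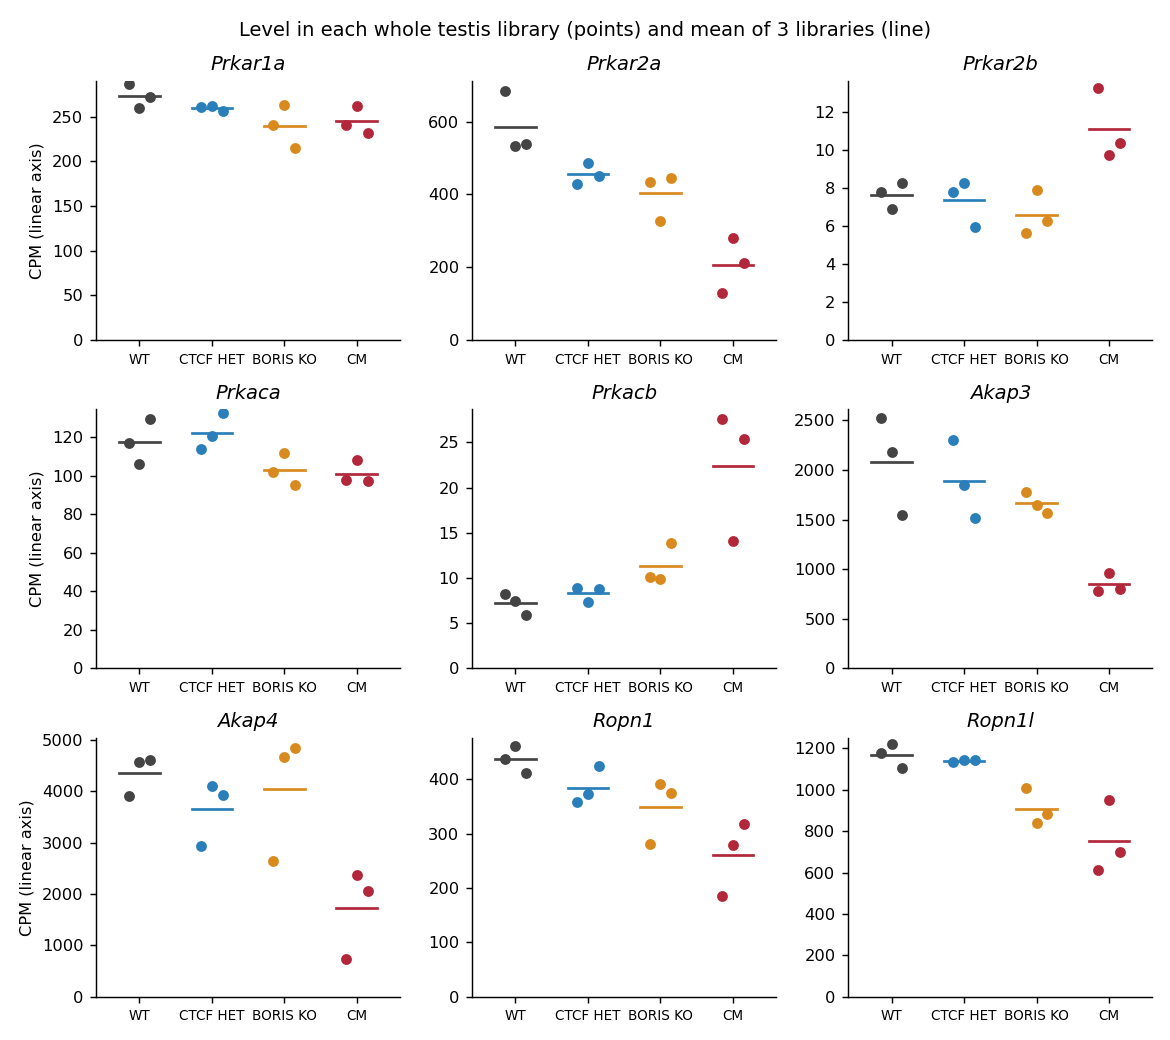
Level of the 9 members in each whole testis library, in CPM on linear axes from 0, with points for libraries and a line for the mean of 3. CM libraries lie below all WT libraries for Prkar2a, Akap3, Akap4, Ropn1 and Ropn1l and above them for Prkar2b and Prkacb.

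The single mutants were compared with WT in the same tissue. In CTCF HET testis 0 of 9 members were called by edgeR, 0 by DESeq2 and 0 at an unadjusted p under 0.05 (0.00621% of all genes were called by edgeR), and the log2 fold changes ran from -0.34 for Prkar2a to 0.22 for Prkacb. In BORIS KO testis 0 of 9 were called by edgeR and 0 by DESeq2, with 3 at an unadjusted p under 0.05 (0.0551% of all genes called by edgeR). Prkar2a was at 435, 328 and 446 CPM in the BORIS KO libraries, each below each WT library, with a log2 fold change of -0.54 ± 0.17 (adjusted p = 0.214). With the replicate block its adjusted p was 0.0313, and it was the 1 member called, against 6.59% of all genes. Prkacb had a log2 fold change of 0.65 ± 0.22 in BORIS KO (adjusted p = 0.232) and was at 10.1, 9.85 and 13.9 CPM.

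CM testis was also set against each single mutant. Against CTCF HET, 3 of 9 members were called (15.5% of all genes), with Prkar2a at a log2 fold change of -1.17 ± 0.32 (adjusted p = 0.0415), Akap3 at -1.20 ± 0.28 (adjusted p = 0.0272) and Prkacb at 1.37 ± 0.32 (adjusted p = 0.0274). With the block Akap4, Ropn1 and Ropn1l were called too, which made 6 of 9 against 43% of all genes. None of the 3 was called without CTCF HET replicate 1, 2 or 3 or CM replicate 3. Against BORIS KO 0 of 9 were called by edgeR, against 1 by DESeq2 and 5 at an unadjusted p under 0.05 (0.006% of all genes called by edgeR). The log2 fold changes of Akap3 and Akap4 in that contrast were -1.01 ± 0.25 and -1.26 ± 0.47, and both were called with the block (adjusted p = 0.0498 and 0.0353), as were 7.36% of all genes. Without CM replicate 2, Prkacb and Akap3 were called in the fit with no block.
The interaction asks whether the CM effect differs from the sum of the single effects on the log scale. It called 0 of 9 members and 0% of all genes by edgeR, with 2 members, Prkar2b and Akap3, at an unadjusted p under 0.05. The interaction was -0.85 ± 0.30 for Akap3 (adjusted p = 0.473), -0.98 ± 0.53 for Akap4 (adjusted p = 0.547) and 0.76 ± 0.38 for Prkacb (adjusted p = 0.52). For Prkar2b it was 0.648 to 0.996 over the fits that leave out a library (adjusted p 0.197 to 0.704). DESeq2 was not run for interactions, and the interaction values given here come from a fit with no replicate block.

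**Figure D3:**
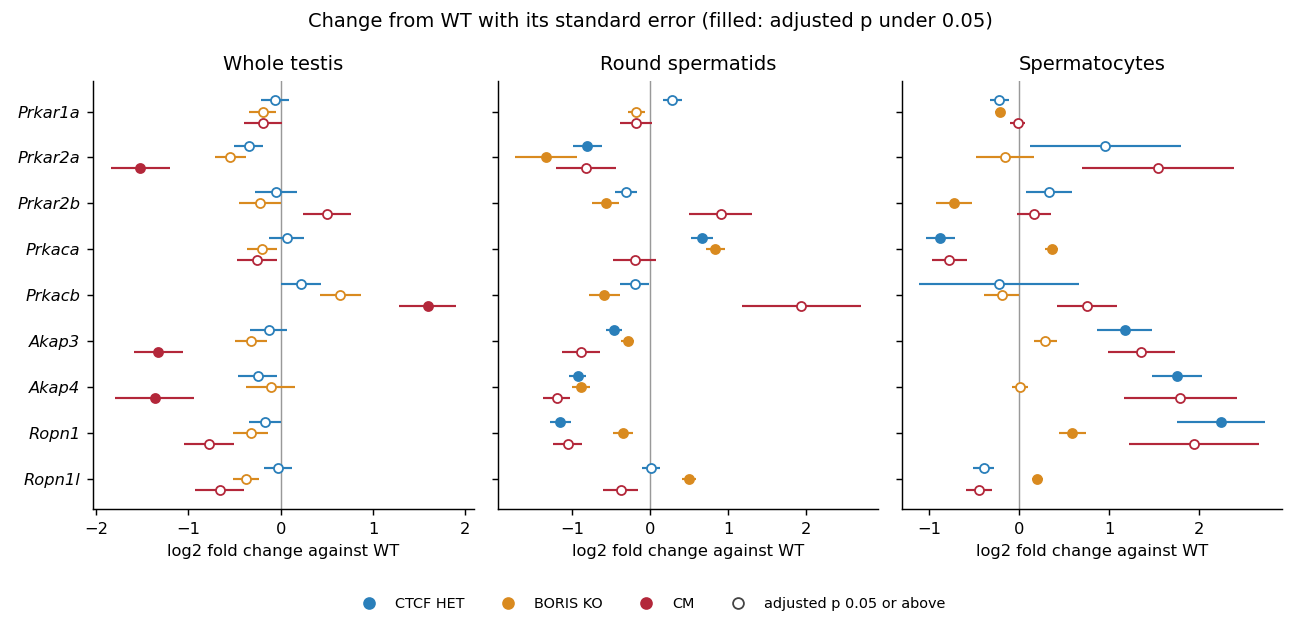
Log2 fold change from WT of each member with its standard error, by preparation and genotype, where filled circles have an adjusted p under 0.05. Akap3, Akap4 and Ropn1 lie left of 0 in round spermatids and right of 0 in spermatocytes in CTCF HET and CM.

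In sorted round spermatids Akap4 and Ropn1 were lower in CTCF HET, by log2 fold changes near -1. Of the 9 members 5 were called in CTCF HET (22.3% of all genes), of which Akap3, Akap4, Ropn1 and Prkar2a were lower and Prkaca higher. Akap4 was at 328, 272 and 330 CPM in CTCF HET, well under the WT libraries given above, with a log2 fold change of -0.93 ± 0.11 (adjusted p = 0.00236). Ropn1 was at 54.6, 52.0 and 49.98 CPM, and its log2 fold change was -1.15 ± 0.13 (adjusted p = 0.00236). These 2 genes stayed called whichever library was left out, while 2 to 6 of the 9 members were called over those fits. Prkaca was at 167.1, 192.4 and 158.7 CPM in CTCF HET and 133.4, 102.6 and 95.7 CPM in WT, which did not overlap (log2 fold change 0.66 ± 0.14, adjusted p = 0.0147). The log2 fold changes of Prkar2a and Akap3 were -0.81 ± 0.19 (adjusted p = 0.0204) and -0.47 ± 0.10 (adjusted p = 0.0148). Without WT replicate 2 or 3 only Akap4 and Ropn1 were called, and the fits without CTCF HET replicate 1, 2 or 3 called 3 members each. Summed round spermatid markers were 1919 to 1998 CPM in WT and 1465 to 1510 CPM in CTCF HET (6 of 10 lower), and their part in these values was not tested.

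In BORIS KO round spermatids 8 of 9 members were called, against 55.8% of all genes, so that a call was common in this contrast. Akap4 was at 269, 303 and 376 CPM, below every WT library, with a log2 fold change of -0.89 ± 0.11 (adjusted p = 0.000197). Prkaca was at 195.4, 191.4 and 189.2 CPM, above every WT library, with a log2 fold change of 0.84 ± 0.12 (adjusted p = 0.000484). Ropn1l was also higher, at 913, 968 and 908 CPM (log2 fold change 0.50 ± 0.09, adjusted p = 0.00143).
Prkar2a was lower at 6.50, 6.88 and 20.2 CPM, where replicate 3 stood near the lowest WT library, and its log2 fold change was -1.34 ± 0.40 (adjusted p = 0.019). Prkar2b, Prkacb, Akap3 and Ropn1 were lower too, by log2 fold changes between -0.59 and -0.29. Akap4, Prkaca and Ropn1l stayed called in all 6 fits that leave out a library, and the other 5 members did not. In all, 3 members were called without BORIS KO replicate 1, 4 without BORIS KO replicate 2, and 5 without WT replicate 2 or without WT replicate 3. With all 4 genotypes in 1 fit, Akap4, Prkaca and Prkar2a were called. Summed spermatocyte markers in these libraries were 774 to 808 CPM, against 1521 to 1933 CPM in WT (3 of 10 higher and 5 lower, median log2 fold change -0.81), and round spermatid markers were 1473 to 1688 CPM (2 of 10 higher and 5 lower). The part of either list in the values of the members was not tested.

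In the round spermatid libraries labelled CM 0 of 9 members were called by edgeR, with 4 at an unadjusted p under 0.05, as was 0.00654% of all genes. DESeq2 called Prkacb, Akap3, Akap4 and Ropn1, 4 of 9 against 11.7% of all genes. Akap4 was at 291, 214 and 232 CPM, far below the WT libraries (log2 fold change -1.20 ± 0.17, adjusted p = 0.107), and Ropn1 at 56.5, 46.3 and 57.5 CPM (log2 fold change -1.06 ± 0.19, adjusted p = 0.107). Akap3 was at 501, 239 and 365 CPM (log2 fold change -0.89 ± 0.24, adjusted p = 0.169). Without CM replicate 1, the library with 172 CPM of Ctcf, all 3 genes were called with an adjusted p of 0.0435. Prkacb was at 4.59, 38.0 and 8.40 CPM and Prkar2b at 10.3, 27.4 and 15.7 CPM, so replicate 2 was the highest for both. That library also held 355 CPM of summed spermatogonia markers, against 36.5 and 62.7 CPM in the other CM libraries and 23.5 to 29.8 CPM in WT, and the part of these markers in the values was not tested. In the CM libraries summed round spermatid markers were 841 to 1279 CPM, against 1919 to 1998 CPM in WT, and spermatocyte markers 1784 to 2855 CPM, against 1521 to 1933 CPM, with 0 of 10 called in either list. The genes detected numbered 14932 to 16670 in CM and 17504 to 17985 in WT, and the part of these differences was not tested either. Summed elongating spermatid markers in round spermatids were 2913 to 4241 CPM in WT, 1628 to 1877 CPM in CTCF HET, 1331 to 2423 CPM in BORIS KO and 1410 to 2053 CPM in CM. The sum was below WT in all mutant libraries, beside the lower Akap4. Gene by gene, 6 of 8 of these markers were lower in CTCF HET (median log2 fold change -0.58), 1 was lower and 1 higher in BORIS KO (median -0.11) and 0 were called in CM (median -0.99). Their part in the values of the members was not tested.

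In spermatocytes the same genes moved the opposite way in CTCF HET. Akap3, Akap4 and Ropn1 were higher and Prkaca lower, which made 4 of 9 members called, against 15.5% of all genes. Akap4 was at 38.2, 41.6 and 23.4 CPM in CTCF HET, above both WT libraries (log2 fold change 1.76 ± 0.28, adjusted p = 0.0101), and Akap3 at 49.0, 42.2 and 23.7 CPM (log2 fold change 1.17 ± 0.31, adjusted p = 0.0425). Ropn1 was at 7.36, 11.9 and 4.56 CPM (log2 fold change 2.24 ± 0.49, adjusted p = 0.0242). CTCF HET replicate 3 was the lowest of its group for all 3 genes.
Prkaca was at 63.0, 78.2 and 95.5 CPM in CTCF HET and 135.6 and 153.2 CPM in WT, and its log2 fold change was -0.87 ± 0.16 (adjusted p = 0.0154). Without WT replicate 2 Ropn1 was not called (adjusted p = 0.0525), and none of the 4 was called without CTCF HET replicate 1 or without CTCF HET replicate 2. The adjusted p of Akap4 was then 0.0603 and 0.0581 and that of Prkaca 0.0502 and 0.0984. Summed elongating spermatid markers were 62.2 to 66.3 CPM in WT spermatocytes, 112.0 to 276 CPM in CTCF HET, 73.5 to 92.3 CPM in BORIS KO and 66.6 to 262 CPM in CM, so the sum was higher in the CTCF HET libraries in which the sheath genes were higher (2 of 8 markers higher). The sum of round spermatid markers was not higher, at 374 to 410 CPM in WT, 332 to 414 CPM in CTCF HET and 275 to 327 CPM in CM. Gene by gene, 3 of 9 of them were higher in CTCF HET and 0 lower. The CTCF HET libraries also detected fewer genes, 12018 to 13406 against 17631 to 17683 in WT, at totals of 53337530 to 62090150 against 81570481 to 83897506 counts. In all 3 of them 6 of 7 macrophage markers (Csf1r, Cd68, C1qa, C1qb, Lyz2 and Cd74), 5 of 8 Leydig and 4 of 9 Sertoli markers were at 0, against 2, 1 and 0 in both WT libraries. The part of depth, of genes detected and of these markers in the values was not tested.

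In BORIS KO spermatocytes 5 of 9 members were called, against 57.2% of all genes, a share near that background. Akap4 was at 10.2, 10.7 and 10.2 CPM, within 1 CPM of the WT libraries (log2 fold change 0.01 ± 0.09, adjusted p = 0.921). Prkaca was at 172.8, 192.5 and 195.3 CPM (log2 fold change 0.37 ± 0.07, adjusted p = 0.00092). Ropn1 rose from a low level to 2.32, 2.76 and 2.60 CPM (log2 fold change 0.59 ± 0.15, adjusted p = 0.00489), Ropn1l rose by 0.21 ± 0.06, and Prkar1a and Prkar2b fell by 0.21 ± 0.06 and 0.72 ± 0.20 on the log2 scale. With all 4 genotypes in 1 fit none of the 5 was called. Without WT replicate 1 or without WT replicate 2 the calls numbered 3, and Prkar1a and Prkaca were the members called in both fits.

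In the spermatocyte libraries labelled CM 0 of 9 members were called by edgeR, with 5 at an unadjusted p under 0.05, and 0.604% of all genes were called. DESeq2 called 4 of 9, Prkaca, Akap3, Ropn1 and Ropn1l, against 22.1% of all genes. Akap4 was at 11.7, 31.9 and 59.4 CPM, where replicate 1 stood at the WT level and the others above it (log2 fold change 1.79 ± 0.63, adjusted p = 0.124). Akap3 was at 24.6, 41.4 and 61.0 CPM (log2 fold change 1.36 ± 0.37, adjusted p = 0.0828). Without CM replicate 1, the library with 85.9 CPM of Ctcf, 6 members were called, among them Akap4 with a log2 fold change of 2.22 (adjusted p = 0.00546) and Prkaca with -0.98 (adjusted p = 0.00282). The genes detected numbered 14145 to 16666 in CM and 17631 to 17683 in WT. Summed spermatocyte markers were 6436 to 9225 CPM against 5422 to 6295 CPM (0 of 10 called), and spermatogonia markers 11.05 to 15.72 CPM against 6.51 to 6.53 CPM (1 of 6 higher). The part of these differences in the values was not tested.

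The difference between the round spermatid and the spermatocyte effect was tested directly in 1 fit of both cell types. In CTCF HET it was called for 6 of 9 members, against 33.6% of all genes. It was -2.58 ± 0.29 for Akap4 (adjusted p = 0.000913), -3.29 ± 0.44 for Ropn1 (adjusted p = 0.00127), -1.54 ± 0.32 for Akap3 (adjusted p = 0.0057) and 1.64 ± 0.25 for Prkaca (adjusted p = 0.0017) on the log2 scale. The median over all genes in this contrast was 0.33 with TMM scaling and -0.03 with RLE scaling, and against either median these 4 genes lay on the same side and stayed called. They also stayed called in all 11 fits that leave out a library. Prkar1a, at 0.60 ± 0.17, was not called with RLE scaling (0.23, adjusted p = 0.293), nor without WT round spermatid replicate 3, CTCF HET round spermatid replicate 3 or either WT spermatocyte library, and Prkar2a, at -1.66 ± 0.45, was not called without either WT spermatocyte library.
In BORIS KO 3 of 9 members differed, against 13.4% of all genes, with -0.97 ± 0.17 for Akap4 (adjusted p = 0.00589), -1.01 ± 0.20 for Ropn1 (adjusted p = 0.00844) and -0.65 ± 0.17 for Akap3 (adjusted p = 0.0257). The call of Akap3 was lost in 8 of the 11 fits that leave out a library (adjusted p 0.0609 to 0.345) and stood without WT round spermatid replicate 1, BORIS KO round spermatid replicate 3 or BORIS KO spermatocyte replicate 1. Without WT round spermatid replicate 1 the number was 5, with Prkaca and Ropn1l added. No member was called in BORIS KO without WT spermatocyte replicate 2, where the adjusted p of Akap4 was 0.138. In CM the same 3 genes differed, against 3.51% of all genes, with -3.06 ± 0.64 for Akap4 (adjusted p = 0.025), -3.06 ± 0.71 for Ropn1 (adjusted p = 0.0361) and -2.31 ± 0.47 for Akap3 (adjusted p = 0.0236). These CM calls were lost in the fits without any 1 of the WT libraries, CM round spermatid replicate 3 or CM spermatocyte replicate 2, where the adjusted p of Akap4 ran up to 0.192. Ropn1 was also not called without CM round spermatid replicate 2 or CM spermatocyte replicate 3. All of these contrasts share the WT libraries and are not independent of each other.

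The other genes of the cAMP pathway were taken as 6 lists, which hold 65 genes and none of the members. In CM testis 8 of the 11 tested genes for fibrous sheath proteins or proteins with a PKA type II docking domain were lower and 0 were higher, and their median log2 fold change was -0.98. Of all genes tested in this contrast, 8.8% were lower and 16.4% higher, the shares to set beside each list count. Gapdhs, the sperm form of a glycolytic enzyme bound to the sheath, fell from 2696 ± 81.8 to 965 ± 57.2 CPM (SD, n = 3, log2 fold change -1.52 ± 0.23, adjusted p = 0.0151). Gapdhs is also among the elongating spermatid markers given above, so this list and those markers are not fully separate. Aldoart1, a sperm aldolase that may share reads with related aldolase genes, fell from 103.3 ± 27.7 to 40.7 ± 6.55 CPM (log2 fold change -1.36 ± 0.26, adjusted p = 0.0161).
Of 16 other A-kinase anchors 1 was higher and 4 were lower (Akap1, Akap10, Akap14 and Sphkap), with a median of -0.35. Akap1, a mitochondrial anchor, was lower by a log2 fold change of -1.53 ± 0.29 (adjusted p = 0.016) and Akap13 higher by 1.45 ± 0.30 (adjusted p = 0.0173). Of 8 cyclases tested 2 were higher and 1 was lower, which was Adcy10, the soluble adenylyl cyclase of sperm, at 764 ± 160.8 CPM in WT and 345 ± 66.5 CPM in CM (log2 fold change -1.17 ± 0.26, adjusted p = 0.0195). The 2 higher cyclases were Adcy9 (2.05 ± 0.40, adjusted p = 0.0165) and Adcy7 (1.56 ± 0.34, adjusted p = 0.0181).
Among 16 phosphodiesterases, which degrade cyclic nucleotides, Pde4c (1.62 ± 0.48, adjusted p = 0.0391) and Pde4d were higher and Pde1a was lower. Among 5 other PKA subunits and inhibitors Pkia, an inhibitor of the catalytic subunit, was higher (1.68 ± 0.37, adjusted p = 0.0184) and Pkib, another inhibitor, was lower. Of 7 cAMP-responsive factors Fhl5, the coactivator of CREM also known as ACT, was the 1 called, at -1.24 ± 0.29 (adjusted p = 0.0209). Over all lists 6 of 63 tested genes were higher and 16 lower, and their median log2 fold change was -0.47, against 0.003 for all genes.

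In WT round spermatids against spermatocytes, the sheath list had 7 genes higher and 2 lower of 11, with a median of 1.72. Of all genes tested in this contrast, 35.8% were higher and 34.2% lower, so a call in either direction was common. Aldoart1 was at 111.8 ± 5.43 CPM in round spermatids and 1.18 ± 0.08 in spermatocytes (log2 fold change 6.59 ± 0.15, adjusted p = 1.18e-07), and Gapdhs at 292 ± 24.0 and 6.36 ± 0.02 CPM (5.55 ± 0.13, adjusted p = 1.25e-07). Cabyr, a calcium-binding sheath protein, was at 899 ± 102.7 and 12.0 ± 0.53 CPM (6.25 ± 0.16, adjusted p = 1.4e-07). Of the 16 other anchors 10 were higher and 5 lower. Akap14 was higher by 6.84 ± 0.19 on the log2 scale (adjusted p = 1.87e-07) and Akap1 by 4.99 ± 0.13 (adjusted p = 1.37e-07). Akap8, a nuclear anchor, was lower at -2.12 ± 0.12 (adjusted p = 3.58e-06), as was Akap11 at -1.27 ± 0.12 (adjusted p = 5.36e-05). Among the cAMP-responsive factors Fhl5 and Crem, the activator of haploid genes, were higher, and 4 of 7 were lower, among them Creb1 at -1.10 ± 0.11 (adjusted p = 9.81e-05). Cyclases had 2 higher and 4 lower of 8, phosphodiesterases 4 higher and 5 lower of 15 (among the lower Pde10a at -2.24 ± 0.10 and Pde8a at -0.79 ± 0.08), and the other subunits and inhibitors 4 higher and 1 lower of 5.
In BORIS KO round spermatids 11 of 16 other anchors and 6 of 11 sheath genes were lower, and in CTCF HET 5 of 16 and 6 of 11. In these 2 contrasts 28 of 62 and 16 of 61 genes of all lists were lower and 9 and 3 higher. Of all genes tested, 29% were lower and 26.8% higher in BORIS KO round spermatids, and 12.8% were lower and 9.51% higher in CTCF HET round spermatids. In CTCF HET spermatocytes 5 of 10 sheath genes were higher and 0 lower, with a median log2 fold change of 0.66 against -0.09 over all genes, of which 6.77% were higher and 8.76% lower.

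**Figure D4:**
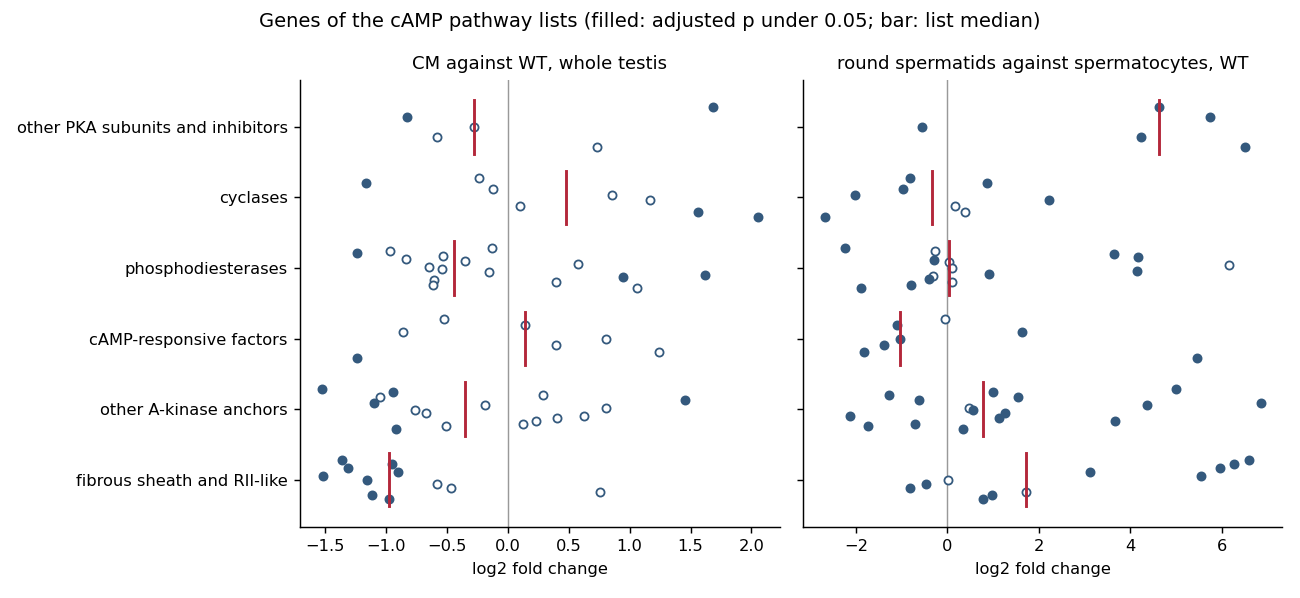
Log2 fold change of each tested gene of the 6 pathway lists in CM against WT testis (left) and in WT round spermatids against spermatocytes (right), with filled points for an adjusted p under 0.05 and a red bar for the list median. The sheath list lies mostly left of 0 in CM testis and right of 0 in round spermatids. The point of Pde3a, beyond 6 on the right, has 0 counts in WT spermatocytes, so its position is no bound.

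The genes closest to Akap4 and Prkar2a in pattern were sought over the 8 means of genotype and sorted cell type, among 7301 genes with a mean of at least 10 CPM. For Akap4 these were Spz1 (Pearson's r of log2 levels 0.999), Chl1 and Stat4, and for Prkar2a Spata7 (0.999), 4930594C11Rik and Ms4a5. The 8 points share libraries, sorts and the large difference between the 2 cell types, so the coefficients are a description.

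Peaks were counted in each gene body with 2000 bp on either side, on mm9. Akap3 (chr6:126803116-126824325), Akap4 (chrX:6644645-6655735), Prkar1a (chr11:109510719-109530970) and Fsip2 (chr2:82783791-82849094), all on the plus strand, had no CTCF and no BORIS peak. In WT 5 of the 10 genes had a CTCF peak by this count, as did 48.9% of the 22380 protein-coding genes annotated, and 3 of these 5, Prkaca, Prkacb and Ropn1, had one within 1000 bp of an annotated start, where 26.7% of 22238 protein-coding genes have one. In CM 3 genes had a CTCF peak (32.5% of all genes) and 0 had one near a start (9.32%). The WT peaks near starts were low, with heights of 103 and 208 at Prkaca, 116 at Prkacb and 106 at Ropn1. The lowest height in that list is 100 and its median 491, so peaks like these can drop out of a list after a small change. BORIS peaks lay at Prkar2a, Prkaca and Ropn1 (21.5% of all genes had one), each away from the starts, where 13.5% of all genes have one.

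The highest of these peaks stood in an intron of Ropn1, at chr16:34667073-34667442, 15983 bp from the nearest start, with a height of 2931 against a median of 491 over the 34625 WT CTCF peaks. It overlapped a CM CTCF peak at chr16:34667092-34667435 with a height of 570 (median of that list 316) and a BORIS peak at chr16:34667189-34667345 with a height of 66 (median 84). Heights are set beside the median of their own list because how the lists were scaled is not given in the sources used here. The sequence of the BORIS peak is shown, mm9 plus strand, since both proteins bind the same core, with the 1 match to a CTCF core word in capitals. Of windows of the same 157 bp on the summits of all WT CTCF peaks, 59.9% hold such a word.
Ropn1: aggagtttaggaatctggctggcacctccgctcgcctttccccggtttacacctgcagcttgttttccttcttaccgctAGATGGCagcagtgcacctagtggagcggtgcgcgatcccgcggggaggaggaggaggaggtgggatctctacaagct

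At Prkaca (chr8:86496877-86520344) 2 WT CTCF peaks stood just before the second annotated start, at chr8:86500163-86500334 and chr8:86500751-86500988, with heights of 103 and 208, and neither had a counterpart in the CM list. A WT H3K4me3 peak at chr8:86499951-86501034 covered the same start with a score of 215, against 54.5 at the first start. The CM list had H3K4me3 peaks at both starts as well, with scores of 64.9 at the second and 146.9 at the first. Past the end of Prkaca another WT CTCF peak stood at chr8:86522167-86522745, with a height of 127. It overlapped the BORIS peak of this gene at chr8:86521947-86522372, with a height of 97, and no CTCF peak of the CM list. At Prkacb, a WT CTCF peak at chr3:146475905-146476329 with a height of 116 lay 193 bp from a start, near the lowest height listed, which is 100. Prkar2b had an intronic CTCF peak in WT and in CM at overlapping positions, and Ropn1l 1 in each that did not overlap. Counting over the gene body with 10 kb on each side, 7 genes had a WT CTCF peak, as did 62.4% of all genes.

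H3K4me3 peaks were listed within 1000 bp of a start of all 10 genes in WT (50.7% of all genes) and in CM (55.2%). Pol2 peaks were listed there for 9 genes in WT, without Prkar2b (38.5% of all genes), and for 10 in CM (45.5%). The Pol2 peak at the start of Akap4 spanned 2153 bp in WT with a score of 1643 and 1318 bp in CM with a score of 461. By the highest score near a start, Prkar2a had 597 in WT and 67.7 in CM, Akap3 584 and 147.4, Ropn1 3100 and 1668, and Fsip2 1313 and 748. The order was the other way at Prkar1a, with 1271 in WT and 2195 in CM, at Prkaca with 126.6 and 200.3, and at Prkacb with 63.2 and 150.9, while Ropn1l had 3100 in both and Prkar2b had 177.8 in CM alone. The tied score of 3100 at Ropn1 and Ropn1l stood above 99.1% of the WT and 99.3% of the CM list, whose highest scores are 3227 and 3230. Whether 3100 is a ceiling of the caller is not known, so the tie at Ropn1l need not mean equal signal. The medians of the lists were 143.5 in WT and 113.4 in CM. Scores are not known to be on 1 scale between lists and each list stands alone, so these values were not tested. The highest H3K4me3 scores were 499 in WT and 924 in CM at Prkar2a, 685 and 765 at Akap3, 177.9 and 62.8 at Akap4, and 550 and 555 at Prkacb. The medians of these lists were 97.5 in WT and 185.1 in CM. Within its own list the Prkar2a peak stood above 89.3% of the peaks in WT and 90.9% in CM. For Akap3 these shares were 93.4% and 86.9%, for Akap4 70% and 12.1%, and for Prkacb 90.7% and 79.1%. Spermatid markers were lower in CM testis RNA, as given above, and their part in the Pol2 scores was not tested.

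**Figure D5:**
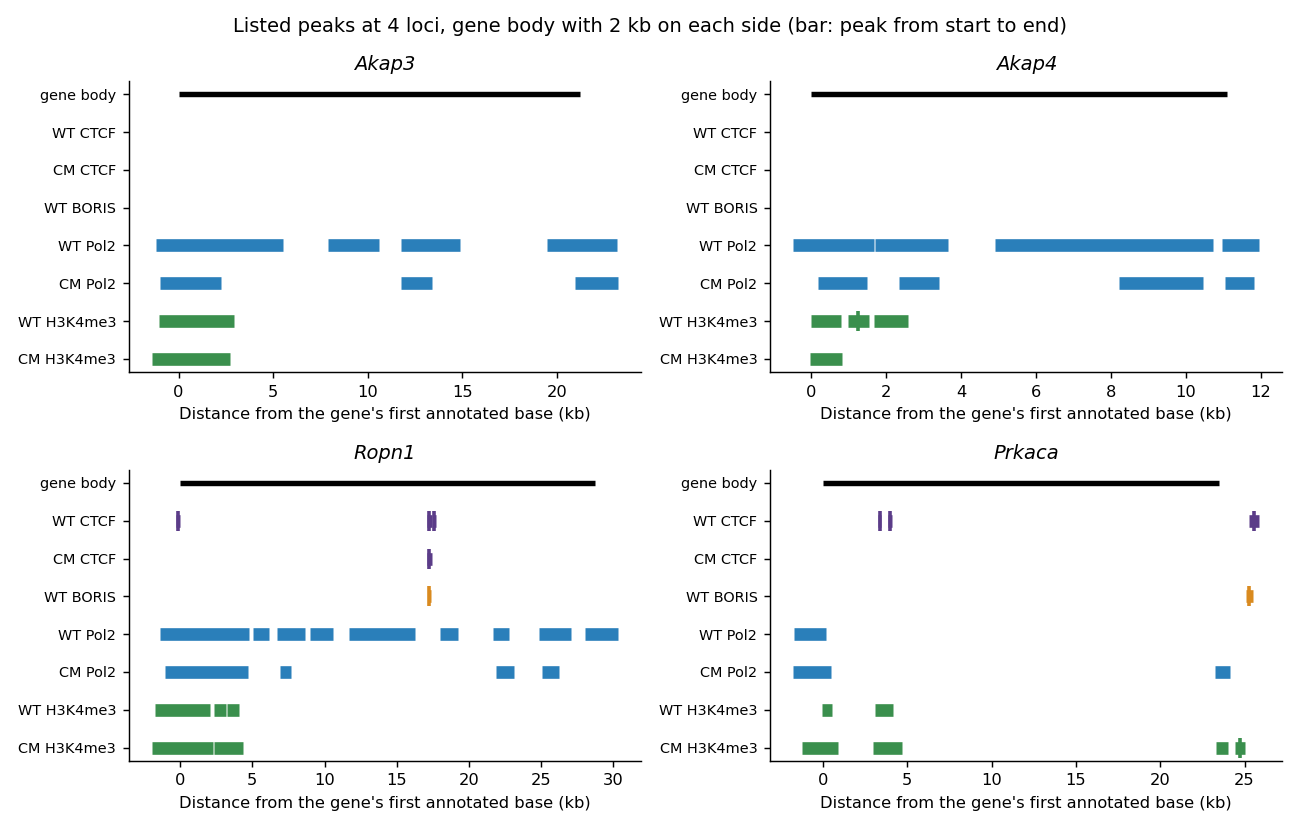
Listed peaks at Akap3, Akap4, Ropn1 and Prkaca, drawn from start to end against the distance from the gene's first annotated base in kilobases, 1 row per list. Akap3 and Akap4 hold Pol2 and H3K4me3 peaks and no CTCF or BORIS peak, while Ropn1 has a CTCF peak in WT and CM with a BORIS peak at the same place in its intron, and the CTCF peaks inside Prkaca are listed in WT alone.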

How the data were processed

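The deposited counts are raw read counts per gene. Per the labels and methods, the authors aligned reads to mm9, with TopHat2 and then Bowtie2 for whole testis and with STAR for sorted cells. The counting tool, annotation and use of strand are not given in the sources used here. The deposited CTCF and BORIS lists hold tag heights at the summit, and the Pol2 and H3K4me3 lists hold peak caller scores, which the authors made with Bowtie2, MACS and MACS2. Each antibody and genotype has 1 list, and how replicates were combined is not given in the sources used here.

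Each contrast was fitted on its own libraries in edgeR 4.0.16 (R 4.3.3) by the quasi-likelihood F test, after filterByExpr (minimum count 10) and TMM scaling, with Benjamini-Hochberg adjustment over all genes tested and a threshold of 0.05. CPM used TMM-scaled library sizes. The steps were tested on simulated counts of CM against WT, with 200 genes changed by a log2 fold change of 2 in either direction. The fit recovered 78% of them in whole testis, with 16 false calls, and 44% in round spermatids, with 4 false calls. Recovery of smaller log2 fold changes, such as those of Akap3, Akap4 and Ropn1 in CM round spermatids, was not tested. A missing call in CM round spermatids is therefore weak evidence of no change. Members, gene lists and thresholds were chosen with earlier results of these data known. Pathway genes were named in CM against WT testis and in WT round spermatids against spermatocytes, as the 5 genes higher and the 5 genes lower that had the lowest adjusted p, and wherever a count was 5 or fewer.

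In whole testis a pairing by replicate number was inferred, since residuals of same-numbered libraries correlated in all 18 pairs (r 0.121 to 0.631). At an r over 0.1 this held for 4 of 18 pairs in round spermatids and 1 of 15 in spermatocytes. The labels name no pairing, and what the correlated libraries share was not tested. The fits behind the main calls hold no block. Per the methods the whole testis replicates are independent preparations. For sorted cells the sources used here do not say whether replicates came from separate mice, so those p-values measure only the spread between these libraries, which may be technical. Gene positions are those of GENCODE vM1 on mm9. Alternatives were DESeq2 1.42.0, RLE scaling, no low-count filter, all genotypes in 1 fit, a replicate block, the study's thresholds, each library left out, and other peak windows and height limits.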

Additional observations from a re-analysis of the deposited data

Results flagged for a closer look

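The effect of a genotype on single members differed in 12 cases between round spermatids and spermatocytes by a test of the difference itself (edgeR's quasi-likelihood test of an interaction, adjusted over all genes). These 3 contrasts share the WT libraries, and those of CTCF HET and BORIS KO were added after the values had been seen. For CTCF HET the difference, round spermatid minus spermatocyte effect on the log2 scale, was -1.541 for Akap3, -2.583 for Akap4, -3.288 for Ropn1, -1.665 for Prkar2a, 1.635 for Prkaca and 0.5999 for Prkar1a. The calls of Prkar1a and Prkar2a were lost in 4 and 2 of 11 fits that leave out a library, and that of Prkar1a also with RLE scaling. Akap3, Akap4 and Ropn1 were lower than WT in the round spermatids and higher in the spermatocytes of this genotype. For BORIS KO it was -0.654 for Akap3, -0.9667 for Akap4 and -1.012 for Ropn1, all of which were lower than WT in round spermatids. The call of Akap3 there was lost in 8 of 11 fits that leave out a library. For the libraries labelled CM it was -2.306 for Akap3, -3.061 for Akap4 and -3.065 for Ropn1. With a library left out, the CM calls of Akap3 and Akap4 were each lost in 7 of 11 fits and that of Ropn1 in 9. Summed elongating spermatid markers moved the same way in CTCF HET, from 2913 to 4241 CPM in WT to 1628 to 1877 CPM in round spermatids and from 62.2 to 66.3 CPM to 112.0 to 276 CPM in spermatocytes. In BORIS KO this sum was 1331 to 2423 CPM in round spermatids and 73.5 to 92.3 CPM in spermatocytes, and in CM 1410 to 2053 and 66.6 to 262 CPM. Summed round spermatid markers were not higher in CTCF HET spermatocytes, at 332 to 414 CPM against 374 to 410 CPM in WT. The part of these markers in the differences was not tested.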

How the results depend on the processing

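Over the alternatives, single members gave 1962 values, of which 1688 kept their direction and side of the threshold, 156 lost a call, 67 gained one and 51 changed sign. None of the 51 was called with all libraries and the chosen settings. With the replicate block 1 member was called in BORIS KO testis, 2 in CM against BORIS KO and 6 in CM against CTCF HET. In CM testis 5 of 9 were called, with 7043 genes in all against 4135. In the CM difference between cell types 0 were called, and same-numbered sorted libraries mostly did not correlate. In the other contrasts of sorted cells the block moved the number of members called by at most 1. The study's stricter thresholds (adjusted p under 0.001 and a fold over 2), set on edgeR's values, left 0 members in CM testis, in round spermatids and spermatocytes of CTCF HET and likewise of BORIS KO, in CM against CTCF HET, in CM round spermatids against spermatocytes and in the CM and BORIS KO differences between cell types, 1 in the CTCF HET difference and 4 in BORIS KO round spermatids against spermatocytes. With all genotypes in 1 fit, CTCF HET round spermatids had 2, BORIS KO round spermatids 3, CM round spermatids 3, BORIS KO spermatocytes 0, CM spermatocytes 3, CM against BORIS KO 1 and CM against CTCF HET 5. Without a low-count filter BORIS KO round spermatids had 3 and CTCF HET spermatocytes 2. DESeq2 called 4 in CM round spermatids (1797 genes in all against 1), 4 in CM spermatocytes (3260 against 89) and 1 in CM against BORIS KO. The cause of these changes was not tested.

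Leaving out 1 library at a time, the number of members called was 0 to 5 in CM testis, 0 to 2 in CM against BORIS KO and 0 to 3 in CM against CTCF HET. In round spermatids it was 2 to 6 for CTCF HET, 3 to 6 for BORIS KO and 0 to 3 for CM, and in spermatocytes 0 to 5, 3 to 7 and 0 to 6. Between the cell types it was 5 to 8 for WT, 6 to 8 for CTCF HET, 6 to 7 for BORIS KO and 3 to 4 for CM. For the differences between effects it was 0 to 4 with CM, 4 to 7 with CTCF HET and 0 to 5 with BORIS KO. It stayed at 0 in both single mutants' testis and in the interaction there. The fits that leave out a library had no replicate block, although residuals of same-numbered whole testis libraries correlated.

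Sign changes under other settings were 0.0171 for Prkar2a in BORIS KO spermatocytes (block), -0.00275 (RLE) and -0.00264 (DESeq2) for Akap4 there, 0.0345 (no filter), 0.0303 (1 fit) and 0.0016 (block) for Prkar1a in CM against BORIS KO, -0.141 (RLE) and -0.00896 (block) for Ropn1l in the CM difference and -0.236 (RLE) for Prkacb in the CTCF HET difference. RLE also took the call of Ropn1 in BORIS KO round spermatids (adjusted p = 0.0502, edgeR).
With 1 library left out, the log2 fold changes that changed sign spanned the following ranges. They were in CTCF HET testis -0.148 to 0.0539 for Prkar2b, -0.029 to 0.188 for Prkaca and -0.084 to 0.0229 for Ropn1l, in BORIS KO testis -0.275 to 0.142 for Akap4, in CTCF HET round spermatids -0.0784 to 0.0932 for Ropn1l, in CTCF HET spermatocytes -1.1 to 0.245 for Prkacb. They were in BORIS KO spermatocytes -0.573 to 0.0588 for Prkar2a, -0.434 to 0.0936 for Prkacb and -0.0508 to 0.0698 for Akap4, in CM spermatocytes -0.0588 to 0.00379 for Prkar1a, in CM against BORIS KO -0.0633 to 0.0879 for Prkar1a and -0.106 to 0.0166 for Prkaca. They were in CM round spermatids against spermatocytes -0.249 to 0.331 for Prkaca and -0.388 to 0.0337 for Ropn1l, in the whole testis interaction -0.195 to 0.0065 for Prkaca, in the CM difference -0.366 to 1.52 for Prkacb and -0.241 to 0.192 for Ropn1l, in the CTCF HET difference -0.29 to 1.01 for Prkacb and in the BORIS KO difference -0.071 to 0.215 for Prkar1a and -0.0706 to 0.323 for Prkar2b.

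For the peaks, the upper 50% of heights or scores left 1 member with 1 WT CTCF peak and 0 near a start, 1 member with 1 BORIS peak, 23 Pol2 peaks in WT and 23 in CM, 14 H3K4me3 peaks in WT and 9 in CM, 1 WT CTCF peak that overlapped one in CM and 0 that overlapped BORIS. Within 10 kb of the genes there were 5 BORIS peaks, and over the gene body alone 1 CTCF peak overlapped BORIS. Peak lists have no replicates, so no error could be given.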
